A study of Mus musculus with 2 samples.

Results

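The genes described here encode the hypoxia-inducible factor (HIF) subunits and the enzymes that couple them to oxygen: Epas1, Hif1a, Arnt, Vhl, Egln1, Egln2, Egln3 and Hif1an. They were taken by gene symbol from the platform annotation, each had 1 probe set, and they are 8 of the 19505 genes measured. They were chosen with their values on these arrays known, and with the contrast of Epas1 and Hif1a in view, so the values below are a description with no test.

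Mouse CD8 T cells from spleen and lymph node were primed with plate-bound anti-CD3 and soluble anti-CD28 and measured on day 5, on 1 array of Tc9 cells and 1 array of Tc1 cells. Tc9 cells, an interleukin 9-producing type, were polarized for 3 days with IL-4 at 10 ng/mL, TGF-beta at 1 ng/mL and an antibody against interferon gamma at 20 µg/mL. Tc1 cells, the interferon gamma-producing type, were polarized for the same 3 days with recombinant human IL-2 at 10 ng/mL. After polarization both were moved to medium with recombinant human IL-2 at 10 ng/mL for 2 days, so both groups are activated cells under that cytokine. The sources used here do not give strain, genotype, age, the number of mice or the oxygen level of the cultures. The study looked for genes with higher expression in Tc9 cells. Only 1 array per group was analysed here, so there is no check against replicate spread, and every difference describes this pair of arrays. The Tc9 array is labelled Tc9 in its title and description but Tc1 in its source name. Its Il9 signal of 351 intensity units, against 28.2 on the Tc1 array, went with the title. Ifng, at 189.9 on the Tc9 array and 622 on the Tc1 array, and Tbx21, at 90.7 and 753, were lower in Tc9 cells. The cytotoxic granule genes Gzmb and Prf1 were also lower there, 3.01-fold and 2.41-fold, and the transcription factor gene Batf was 2.43-fold higher. These genes belong to a list of 9 Tc1 and Tc9 identity genes, and its members did not all separate the arrays. Irf4 was nearly equal, at 3243 on the Tc9 array and 3160 on the Tc1 array. Spi1 was 1.60-fold lower in Tc9 cells, at 765 and 1225, and Eomes was 2.09-fold lower.

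HIF is a pair of an alpha subunit, HIF1A or EPAS1 (also called HIF-2 alpha), and the beta subunit ARNT, and the pair binds hypoxia response elements in DNA. In oxygen, the EGLN prolyl hydroxylases use 2-oxoglutarate and iron to hydroxylate the alpha subunits, VHL recognises the hydroxylated protein, and its ubiquitin ligase sends it to the proteasome. HIF1AN, known as factor inhibiting HIF, hydroxylates an asparagine and blocks binding of the coactivators CBP and p300. In activated CD8 T cells, signals from the T cell receptor and mTOR also raise HIF1A protein, which is known for supporting glycolysis. Much of this control acts on protein, and these arrays measured RNA.

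Epas1 was the single gene of the 8 past 2-fold. Its signal was 724 intensity units on the Tc9 array and 53.7 on the Tc1 array, or log2 signals of 9.50 and 5.75. Genes counted as detectable if either array reached a log2 signal of 6.43, the median over all genes and arrays, and Epas1 reached it on the Tc9 array only. Its measured log2 difference, Tc9 minus Tc1, was 3.75, and with the dim value set at the threshold the signal in Tc9 cells was at least 8.39-fold higher. Of the negative control probe sets, 98.9% lay below the Epas1 signal on the Tc9 array and 83.0% on the Tc1 array. With dim values of every gene set at the threshold, its difference was number 11 from the top among 10147 detectable genes, a description of the contrast it was chosen from. The share of probe sets past 2-fold differed between the classes of control. Of 585 negative controls that reached the threshold, 22 were at least 2-fold higher on the Tc9 array and 73 lower. This was 16.2% in all, against 5.41% of detectable genes. Their differences lay between -2.42 and 1.61. The brightest negative controls had log2 signals of 13.5 on the Tc9 array and 13.6 on the Tc1 array. Of 1158 positive controls that reached the threshold, 12 were at least 2-fold higher on the Tc9 array and 3 lower, 1.30% in all. Of 8 GC background probe sets that reached it, 0 passed 2-fold.

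Hif1a, the other alpha subunit, was bright on both arrays and slightly lower in Tc9 cells. Its signal was 3771 on the Tc9 array and 5096 on the Tc1 array, a log2 difference of -0.43, or 1.35-fold lower. It was the single gene of the 8 with a difference below 0. The log2 difference of Epas1 exceeded that of Hif1a by 4.19, and by 3.50 with the dim Epas1 value at the threshold. Probes differ in brightness from gene to gene, so the Epas1 and Hif1a signals are not compared with each other within an array. In these bulk RNA samples, a change in the share of cells that carry an RNA and a change in RNA per cell cannot be told apart.

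Arnt, the shared beta subunit, had a signal of 629.6 on the Tc9 array and 520.2 on the Tc1 array, a log2 difference of 0.28. Vhl, the substrate-recognition subunit of the ubiquitin ligase, had 343 and 273, a difference of 0.33. Both genes reached the threshold on either array, and the larger of their folds was 1.26.

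The 3 prolyl hydroxylases differed in size but not in direction. Egln3, which encodes PHD3 and is itself a known HIF target, had the largest difference of the enzymes, at 3324.5 on the Tc9 array and 1965 on the Tc1 array. This was 1.69-fold higher in Tc9 cells, a log2 difference of 0.76. By measured difference Egln3 was number 467 from the top of the detectable genes, and number 393 with dim values at the threshold. Egln2, which encodes PHD1, had 494 on the Tc9 array and 362 on the Tc1 array, a log2 difference of 0.45. Egln1, which encodes PHD2, the main oxygen sensor in most cells and also a HIF target, had 2039 and 1880.0, a difference of 0.12. Hif1an, the asparaginyl hydroxylase, had 714 on the Tc9 array and 572 on the Tc1 array, a difference of 0.32.

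**Figure D1:**
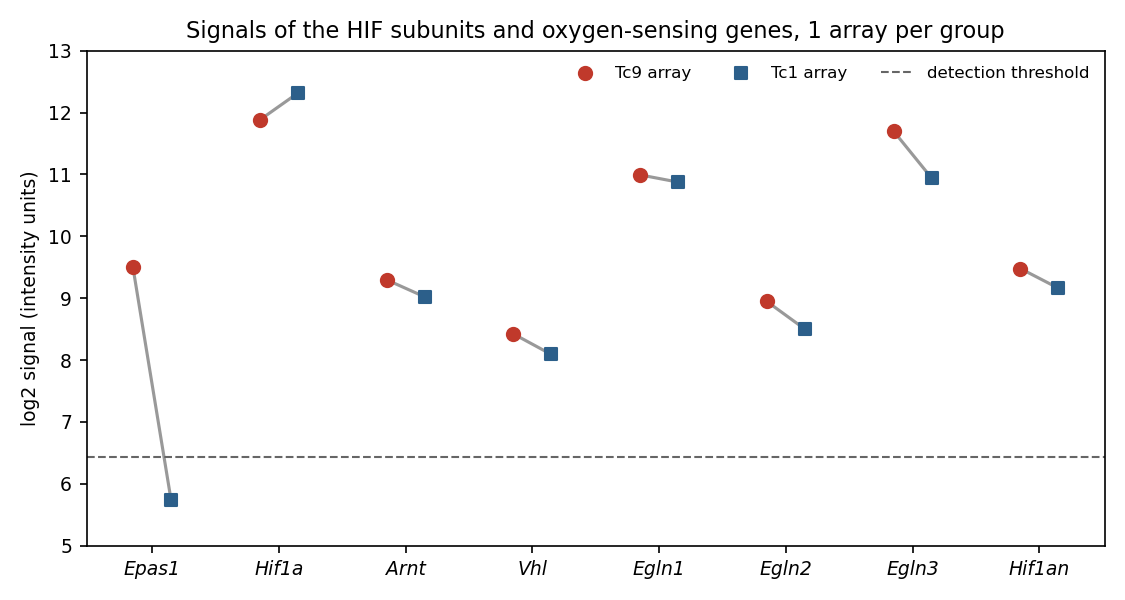
Log2 signals (intensity units) of the 8 genes on the Tc9 array (circles) and the Tc1 array (squares), with grey lines joining the same gene and a dashed line at the detection threshold of 6.43. Epas1 crosses the threshold, at 9.50 on the Tc9 array and 5.75 on the Tc1 array, while the other 7 genes lie above it on both arrays.

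Past 2-fold, 1 of the 8 genes was higher in Tc9 cells and 0 were lower, where 2.62% of detectable genes were higher and 2.79% lower by that rule, 5.41% in all. A difference above 0 was found for 7 of the 8, against 56.3% of detectable genes. These shares are given for scale, since the genes were chosen from the same contrast. The median difference of the 8 was 0.33, and that of all detectable genes was 0.05. Without Epas1, the folds ran between 1.08 for Egln1 and 1.69 for Egln3.

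**Figure D2:**
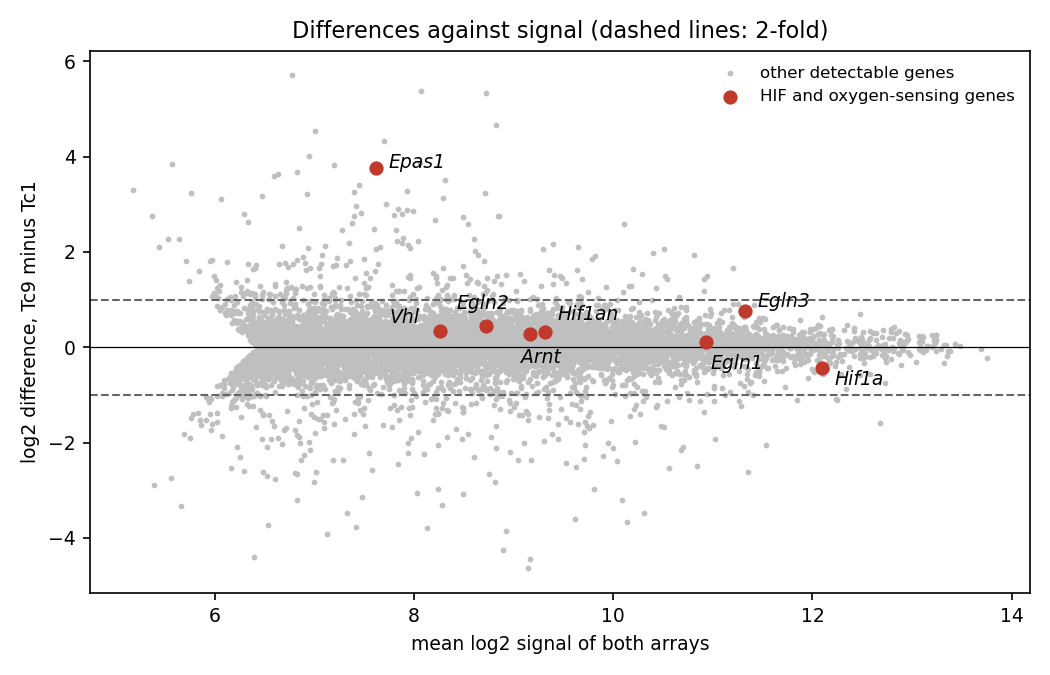
Log2 difference (Tc9 minus Tc1) against the mean log2 signal of both arrays for all 10147 detectable genes (grey) and the 8 HIF and oxygen-sensing genes (red), with dashed lines at 2-fold. Epas1 stands at 3.75 above the cloud, Hif1a at -0.43 among the brightest genes, and the others lie between 0.12 and 0.76.

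The promoters of Hif1a, Egln1 and Egln3 are shown because Hif1a is the alpha subunit set against Epas1 and the hydroxylases are known HIF targets. Windows of 300 bases, 250 before and 50 after an annotated start, were taken from RefSeq (GRCm38.p6) for 7 of the 8 genes, all but Epas1. They are written 5′ to 3′ on the gene's strand. Capitals mark ACGTG, the form of the hypoxia response element core that was searched for, or its reverse complement CACGT.
Hif1a (chr12:73907617-73907916, plus strand): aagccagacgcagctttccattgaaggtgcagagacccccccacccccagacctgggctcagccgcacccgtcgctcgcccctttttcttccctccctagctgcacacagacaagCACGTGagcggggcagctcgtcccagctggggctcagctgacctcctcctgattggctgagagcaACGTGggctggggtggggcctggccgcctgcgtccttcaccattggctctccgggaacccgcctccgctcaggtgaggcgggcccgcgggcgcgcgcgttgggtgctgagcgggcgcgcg
Egln1 (chr8:124949205-124949504, minus strand): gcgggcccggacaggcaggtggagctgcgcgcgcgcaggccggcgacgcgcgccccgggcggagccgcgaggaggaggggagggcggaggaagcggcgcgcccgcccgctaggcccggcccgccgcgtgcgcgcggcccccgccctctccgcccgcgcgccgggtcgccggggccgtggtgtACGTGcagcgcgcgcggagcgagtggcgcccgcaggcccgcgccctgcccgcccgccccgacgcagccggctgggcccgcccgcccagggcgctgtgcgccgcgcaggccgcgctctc
Egln3 (chr12:54203825-54204124, minus strand): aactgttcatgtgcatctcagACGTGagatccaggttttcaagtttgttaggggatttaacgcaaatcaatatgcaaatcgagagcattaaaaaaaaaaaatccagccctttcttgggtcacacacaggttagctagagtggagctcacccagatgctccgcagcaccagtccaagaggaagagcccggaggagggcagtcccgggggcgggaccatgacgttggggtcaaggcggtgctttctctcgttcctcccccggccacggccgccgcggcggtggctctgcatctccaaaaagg
The Hif1a window held 2 separate sites, one of which reads as a core on both strands, starting 135 and 70 bases before the start. The Egln1 window held 1 site, 68 bases before the start, and the Egln3 window held 1, 229 bases before. One of the Egln2 windows held 2 sites, and the windows of Arnt, Vhl and Hif1an held none of this form. Cores that begin with G in place of A were not searched for. Of all 32851 promoter windows, 19.6% held ACGTG on either strand. A match is a description of the sequence and says nothing of binding in these cells.

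The rest of the pathway was read from lists of genes by role. The HIF subunits belong to the bHLH-PAS family, and Arnt also pairs with some of its other members. A list of 13 further genes of this family, which does not hold all of its members, was measured, whether or not they pair with Arnt. Of the 13, 5 were detectable. Of these, 3 were higher in Tc9 cells by 2-fold or more and 0 were lower, with a median log2 difference of 1.07, and of 0.33 over all 13. Of all detectable genes, 2.62% were higher by that rule, and the count of 3 was 2 with a pseudocount of 16, where Arntl fell short, and 4 after quantile normalization or median centring. Ahr, the aryl hydrocarbon receptor, had a signal of 567 on the Tc9 array and 53.8 on the Tc1 array and was at least 6.57-fold higher. The circadian clock factors Npas2, at 411 on the Tc9 array and 147.6 on the Tc1 array, and Arntl (BMAL1), at 239 and 113, were 2.78-fold and 2.11-fold higher. The remaining alpha relative Hif3a, at log2 signals of 6.25 on the Tc9 array and 5.89 on the Tc1 array, and the Arnt paralogue Arnt2, at 5.95 and 5.87, were not detectable on either array.

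None of the 16 detectable partners of VHL and factors of HIF protein stability passed 2-fold, where 5.41% of detectable genes did. Of the 16, 9 had a difference above 0 and 7 below, near the 56.3% above 0 among all detectable genes, with a median of 0.13. The largest differences were those of Usp20, a deubiquitinase that acts on HIF1A, with a log2 difference of 0.58, and of Pan2, a deadenylase subunit once named Usp52, with 0.54. The 11 detectable coactivators and their competitors also stayed within 2-fold, with a median of 0.04, which turned to -0.004 after quantile normalization. Sirt1, a deacetylase, was 1.63-fold lower, at 536 on the Tc9 array and 875 on the Tc1 array. Cited2, which competes with HIF for CBP and p300, was 1.54-fold higher, at 3496 and 2271.

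Other oxygen-using dioxygenases, most of which also use 2-oxoglutarate, were measured for 25 genes, of which 23 were detectable and 1 was past 2-fold. Of all detectable genes 5.41% were, so in lists of this size a count of 1 or 0 lies near that share. The gene past 2-fold was Kdm6b, the histone demethylase JMJD3, at 589.6 on the Tc9 array and 232 on the Tc1 array, 2.54-fold higher in Tc9 cells. Ado, a thiol dioxygenase that needs no 2-oxoglutarate and senses oxygen through amino-terminal cysteines, was 1.73-fold higher. The list's median was 0.12. None of 20 enzymes of 2-oxoglutarate, succinate, fumarate and malate metabolism passed 2-fold, with a median of 0.06. Idh1, cytosolic isocitrate dehydrogenase, was 1.51-fold higher and Sdha, a succinate dehydrogenase subunit, 1.44-fold. None of 19 genes of the PI3K, mTOR, NF-kappaB, STAT3 and MYC inputs to HIF1A passed it either, and their median of 0.00 became -0.06 after quantile normalization. Among them Rheb, the activator of mTORC1, was 1.63-fold higher, and Pik3cd, the catalytic PI3K delta subunit, was 1.36-fold lower.

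Genes known as HIF targets were read in 3 lists. Of 18 detectable glycolytic targets, 15 had a difference above 0, against 56.3% of all detectable genes, with a median of 0.19. One of the 18 passed 2-fold, near the share of 5.41% over all detectable genes. This was Aldoc, aldolase C, at 1753 on the Tc9 array and 464 on the Tc1 array, 3.77-fold higher in Tc9 cells. Slc2a3, the glucose transporter GLUT3, was next at 1.86-fold higher, with 3211 and 1723. Of 32 other shared targets, 22 had a difference above 0 and 10 below, against 56.3% above 0 among all detectable genes, with a median of 0.20. Past 2-fold, 1 was higher and 1 lower, near the shares of 2.62% and 2.79% over all detectable genes. With dim values at the threshold, 0 passed in either direction. Stc2, stanniocalcin 2, just reached the threshold on the Tc9 array and was at least 1.05-fold higher. Nos2, the inducible nitric oxide synthase, which interferon gamma also induces in mouse macrophages, was at least 1.87-fold lower, with signals of 15.97 on the Tc9 array and 161.7 on the Tc1 array.

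Genes tied to EPAS1, largely in other tissues and cell types, were mostly dim. Of 19 measured, 14 were not detectable on either array, and the 5 detectable ones had a median of 0.04. Arg1, arginase 1, had 201 on the Tc9 array and 32.6 on the Tc1 array and was higher in Tc9 cells by at least 2.33-fold. Plin2, a lipid droplet coat protein, had 446 and 939, 2.11-fold lower in Tc9 cells. The remaining 3 lay within 2-fold.

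**Figure D3:**
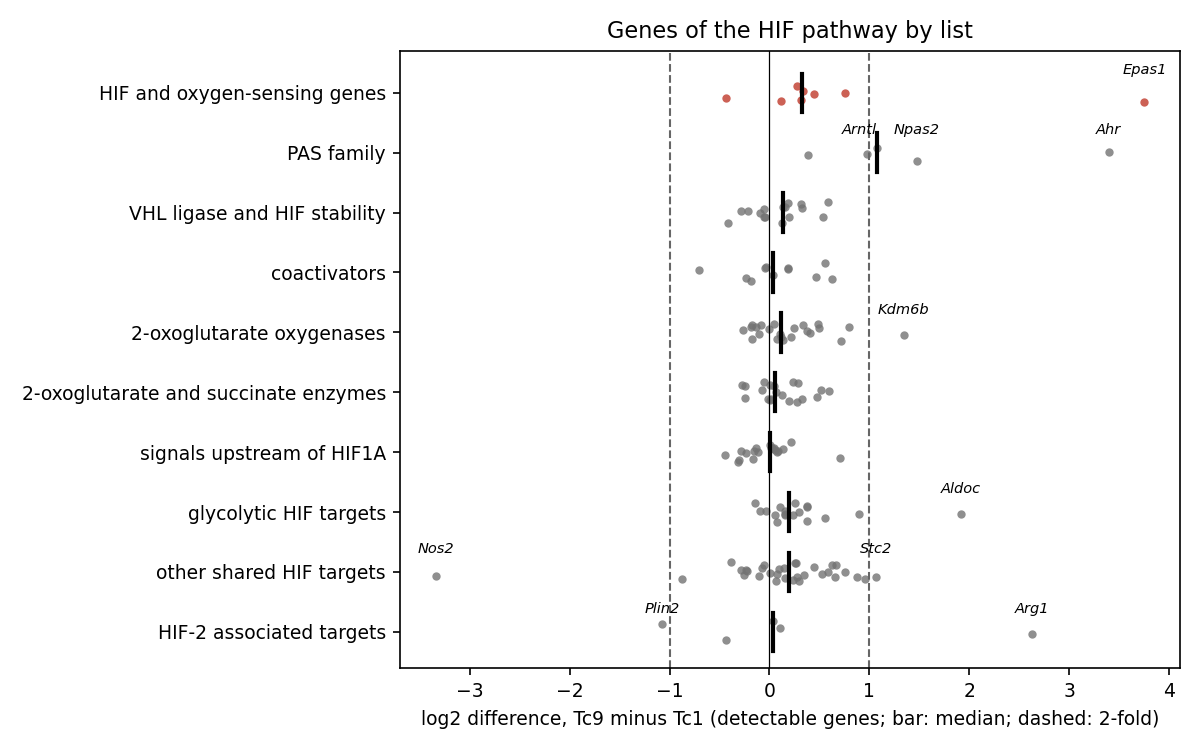
Log2 differences (Tc9 minus Tc1) of the detectable genes in each list of the HIF pathway, 1 point per gene, with a black bar at each list's median and dashed lines at 2-fold. Epas1 and Ahr stand at 3.75 and 3.40, while the medians of the target lists lie between 0.04 and 0.20.

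The genes closest to Epas1 in their pair of log2 signals, by Euclidean distance over the 2 arrays, were Ahr, Akr1c18, Ccl24, Sgk1 and Emp1, at distances between 0.35 and 0.55. Akr1c18 encodes a hydroxysteroid dehydrogenase, Ccl24 a chemokine, Sgk1 a serum- and glucocorticoid-regulated kinase and Emp1 a membrane protein. Each was below the threshold on the Tc1 array, as Epas1 was, so the distances rest in part on values that carry no order. Their folds were at least 6.03 for Ccl24, 6.57 for Ahr, 6.93 for Sgk1, 8.84 for Emp1 and 10.8 for Akr1c18. Those closest to Hif1a were Shisa5, Ccng1, Ablim1, Cd8a and Vdac2, at distances between 0.07 and 0.13, with log2 differences between -0.55 and -0.26. Likeness over 2 arrays of different probes is a weak measure and orders genes by signal as much as by difference.

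Epas1 is a textbook gene of endothelium and is also expressed in macrophages, so markers of other cells were read beside it. The T cell markers Cd3e, Cd8a and Cd8b1 were bright on both arrays, and the 8 measured T cell markers had a median log2 difference of -0.16. Cd8b1 was 1.35-fold lower in Tc9 cells and Cd2 1.27-fold. Of 11 endothelial markers, 3 were detectable, and Cdh5, Kdr, Tek, Tie1, Emcn, Vwf, Cldn5 and Flt1 stayed below it on each array. The summed endothelial signal was 1577 on the Tc9 array and 2138 on the Tc1 array, and 777 and 845 without Eng. Eng, the TGF-beta coreceptor endoglin, was the brightest member, 1.62-fold lower in Tc9 cells, and Esam, an adhesion molecule, was 1.15-fold lower. The part of endothelial RNA in the Epas1 difference was not tested. Of 10 macrophage markers, 4 were detectable, and the summed signal was 995 on the Tc9 array and 840.0 on the Tc1 array, with Lyz2 the brightest. C1qb, a complement subunit, was 1.43-fold higher and Fcgr1, an Fc receptor, at least 1.17-fold lower. Mrc1, a macrophage receptor induced by IL-4, had signals of 33.2 on the Tc9 array and 11.8 on the Tc1 array, both below the threshold. Of the 4 detectable macrophage markers, 2 had a difference above 0 and 2 below, and 0 passed 2-fold. Arg1 and Ccl24, which IL-4 also induces in mouse macrophages, were higher in Tc9 cells by at least 2.33-fold and 6.03-fold. Neither belongs to the macrophage list. Ccl24 was named for its nearness to Epas1 and Arg1 for passing 2-fold in its own list, so their direction was known when they were named. The part of macrophage RNA in the Epas1 difference was not tested. Fibroblast markers summed to 361 and 369, with 2 of 7 detectable, Pdgfrb at least 1.03-fold higher and Col1a1 1.17-fold lower. Mast cell and basophil markers summed to 279 and 339.8, with 1 of 7 detectable, Kit, at least 1.10-fold higher. B cell markers, of which all 6 measured were detectable, summed to 2654 on the Tc9 array and 3829 on the Tc1 array, with Cd79a 1.96-fold and Blk at least 1.38-fold lower. Cd4 was 1.51-fold lower in Tc9 cells and Zbtb7b, a CD4 lineage factor, 1.28-fold higher, and the 3 CD4 T cell markers summed to 782 and 929.

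**Figure D4:**
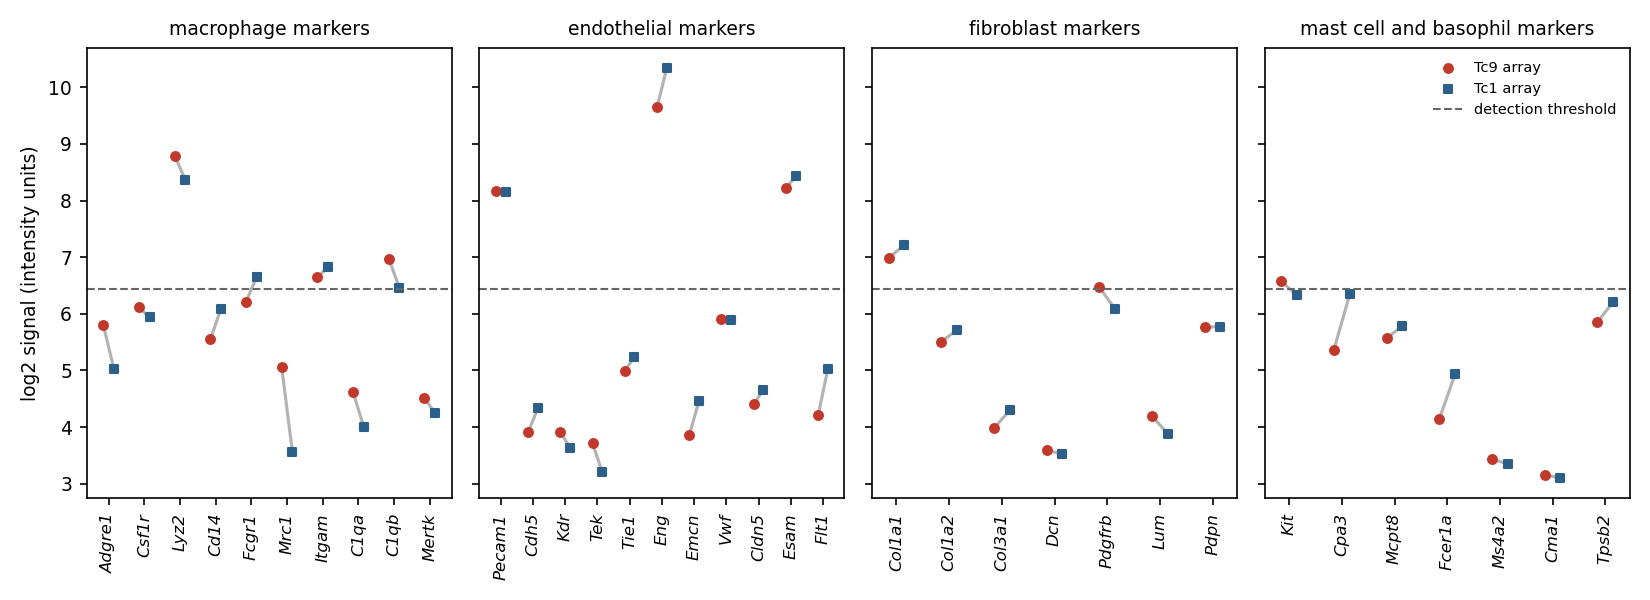
Log2 signals (intensity units) of macrophage, endothelial, fibroblast, and mast cell and basophil markers on the Tc9 array (circles) and the Tc1 array (squares), with a dashed line at the detection threshold of 6.43. Most lie below the threshold on both arrays, and no detectable marker in these panels differed by 2-fold.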

How the data were processed

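Total RNA from 1 culture of Tc9 cells and 1 culture of Tc1 cells was measured on whole-transcript Affymetrix arrays, with Trizol extraction and biotin labelling per the labels' protocols. The authors deposited probe set intensity values on a linear scale; how they were summarized, background-corrected and normalized is not stated in the sources used here. The quantiles lay close together on both arrays (medians of 53.1 for Tc9 and 57.2 for Tc1, upper quartiles of 346.2 and 330.5), so the intensities were put on the log2 scale without further normalization.

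Of 28846 probe sets, 19572 have 1 gene symbol in the platform annotation, none has several and 9274 have none. Matching their Entrez numbers to RefSeq (GRCm38.p6) found all 19572 and gave 19505 genes. Of these, 55 had several probe sets, and the one of higher mean signal was used. Differences are log2 Tc9 minus log2 Tc1. A gene was detectable where its brighter array reached a log2 signal of 6.43, the median of all gene values. A dim value under 6.43 gives a fold written as "at least", with 6.43 in its place. No test is possible with 1 array per group, and the number of arrays limits the precision.

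The 8 genes and the lists were chosen with earlier results of these data known. Named in the text are all 8, in each list the detectable genes past 2-fold (at most 4 in each direction) or, where fewer than 2 passed, the 2 with the largest absolute difference, the 5 genes nearest to Epas1 and to Hif1a, and 4 label checks. Hif3a, Arnt2 and the marker genes beyond that rule were picked once their values had been seen. The counting was tested on simulated data with little noise, where changes were placed only in genes well above the threshold. That checks the code and does not cover genes with a dim value, such as Epas1. Alternatives were quantile normalization, median centring, a pseudocount of 16, dim values at the threshold, a threshold at percentile 95 of the negative controls, no threshold, and the mean of a gene's probe sets. Python 3.11.15, numpy 2.4.6 and pandas 2.3.3 were used.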

Additional observations from a re-analysis of the deposited data

How the results depend on the processing

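Each result on the 8 genes was recomputed under 7 alternatives. Epas1 stayed the single gene past 2-fold and 7 of the 8 differences stayed above 0 under all 7. Some of the 7 could not move these differences. The mean of probe sets could not, since each of the 8 genes has a single probe set. The threshold from the negative controls and the absence of a threshold change only which genes count as detectable. The Epas1 difference was 3.41 with a pseudocount of 16 and 3.07 when dim values were set to the threshold, and its excess over Hif1a was 3.84 and 3.50. The at-least fold of Epas1 fell to 5.07 with the threshold from the negative controls (7.16), against 8.39. Median centring raised all differences by 0.07. The Hif1a difference ran between -0.43 and -0.37, that of Egln3 between 0.75 and 0.83 and that of Egln1 between 0.11 and 0.18. The remaining values of the 8 genes and the counts over all genes moved by less than 0.1 on the log2 scale or 1.5 times. Stc2 lost its call under 3 alternatives, Arntl with the pseudocount and Nos2 with dim values at the threshold. No paired analysis was possible because each group has 1 array, and no array could be left out. Dim signals limit the Epas1 fold, since its Tc1 value is only a bound.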
